A study of Mus musculus with 15 samples.

Results

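Replication licensing is the loading of the MCM helicase onto origins of DNA replication, and the 10 genes described here encode its machinery. They are Mcm2, Mcm3, Mcm4, Mcm5, Mcm6 and Mcm7, the subunits of the helicase; Cdc6 and Cdt1, which load it; Gmnn, which encodes geminin, the inhibitor of Cdt1; and Mcm10, which acts when the loaded helicase is activated. All probe sets annotated to these symbols alone were taken, 27 of 45037 probe sets that are not controls, and they stand for 10 of 18193 genes. The rule used gene symbols and no measured value.

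Mouse cells of 5 groups were profiled on Affymetrix arrays, 3 arrays per group, in a study whose title concerns DNA methyltransferases and the reversibility of hepatogenic differentiation in mesenchymal stromal cells (MSC). MLC derive from primary hepatocytes that received TGF-β1 in the medium of MSC, at 10 ng/ml to day 7, 5 ng/ml to day 14 and 1 ng/ml to day 28, and afterwards that medium without TGF-β1. The dHD28 cells were HD28 cells put back into MSC medium. HD28 cells were MSC exposed to HGF (20 ng/ml), bFGF (10 ng/ml) and nicotinamide during 7 days, followed by oncostatin M (20 ng/ml), dexamethasone (1 µmol/l) and an insulin, transferrin and selenium supplement. Hepatocyte samples were primary hepatocytes, and MSC were the untreated stromal cells; the media of all groups but HD28 held 10% serum, and for HD28 the labels name none. Whether the replicates of a group are separate cultures or animals is not given in the labels, and the p-values then cover only the spread between these samples, which may be technical.

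Values are log2 expression from robust multi-array average (RMA), on which a difference of 1 is a 2-fold difference, and a level is compared only within a probe set. Array medians lay between 4.84 and 4.95. The 7 measured stromal markers averaged 8.96 to 9.49 in the arrays of MLC, dHD28, HD28 and MSC, and 5.24 to 6.10 in hepatocytes. This gap rests on Col1a1, Col1a2, Pdgfra and Pdgfrb. Thy1 and Nt5e overlapped between hepatocytes and MSC. Eng went the other way, at 7.49, 8.30 and 8.28 in hepatocytes against 6.63, 6.45 and 6.40 in MSC. The 7 measured hepatocyte markers averaged 13.5 in hepatocytes against 4.49 to 4.67 in MSC. HD28 replicates 1 and 2 had hepatocyte marker means of 4.25 and 4.52, at the level of MSC, whereas HD28 replicate 3 had 12.2, with 7 of 7 markers above the other HD28 arrays and Alb at 13.80. Its Kupffer cell and macrophage marker mean was 5.57, against 4.35 and 4.49, although Cd68 was lower. Its endothelial marker mean was 4.53, against 3.72 and 4.05. The source of these signals was not tested. The actin 3′ minus 5′ signal of HD28 replicate 3 was 0.94, against 0.29 and 0.23 in the other HD28 arrays. Poly-A spike-in signals split the arrays into 6 of high signal (7.61 to 8.73) and 9 of low signal (4.87 to 5.61), and each group holds both kinds. Because RNA was measured in bulk, fewer cells of a type and less RNA per cell cannot be told apart.

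In the G1 phase of the cell cycle, the origin recognition complex, Cdc6 and Cdt1 place a pair of MCM rings on DNA, which licenses an origin to fire in S phase. Geminin builds up after the start of S phase and holds Cdt1 back, so that no origin is licensed again before the next division. Cells that leave the cycle let their MCM proteins, Cdc6 and geminin decline, and hepatocytes of the adult liver are mostly quiescent. Many licensing genes are known targets of the E2F transcription factors, which act when the pocket proteins release them in late G1.

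Promoter sequences were searched for E2F letters because 8 of the 10 genes share 1 pattern of levels, described below, which Gmnn and Mcm10 do not. In it MLC, dHD28 and MSC stand above HD28, and HD28 above hepatocytes. RefSeq windows of 300 bases (250 before to 50 after a start, assembly GRCm38.p6) were at hand for 8 of 10 genes, in 9 windows, 2 of them for Mcm7. Mcm4 and Gmnn had no window, so these 8 include Mcm10 and are not the 8 of the shared pattern. The motif letters TTTCCCGC, TTTCGCGC, TTTGCCGC and TTTGGCGC, on either strand, occurred in 6 of 9 of these windows and in 744 of 32851 windows of all genes (2.26%). Their last 7 letters occurred in 7 of 9 windows and in 9.57% of all windows. Matches on the 2 strands may overlap, as they do in the run TTCGCGCCAA, whose reverse complement is TTGGCGCGAA. This run, noticed after the matches were seen, is present once in the Mcm5 window, in 2 places in the Mcm6 window and once in 1 Mcm7 window, and in 23 of 32851 windows overall (0.07%). In the Mcm7 window it lies after the start, at bases 18 to 27, and in those of Mcm5 and Mcm6 before it. The windows of Mcm2 and Mcm10 held no match, and those of Mcm3 and Cdt1 held matches after the start only. The letters CCAAT, on either strand, occurred in 7 of 9 windows against 37.4% of all, and TTTGAA or TTCGAA in 2 of 9 against 19.2%. A match describes the letters and is no evidence that a factor binds there. The 2 Mcm7 starts below are numbered by chromosome position. On the minus strand the second start therefore lies upstream of the first. The stretches below are the parts before the start that hold matches, each read 5′ to 3′ on the gene's strand, with every base of a 7-letter match in capitals; they come from chr8:75109325-75109386 (plus strand) for Mcm5, chr1:128359722-128359834 (minus strand) for Mcm6, chr5:138171353-138171399 and chr5:138172022-138172068 (both minus strand) for the 2 starts of Mcm7, and chr11:98907993-98908039 (plus strand) for Cdc6.
Mcm5: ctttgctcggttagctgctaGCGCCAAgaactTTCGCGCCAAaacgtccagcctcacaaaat
Mcm6: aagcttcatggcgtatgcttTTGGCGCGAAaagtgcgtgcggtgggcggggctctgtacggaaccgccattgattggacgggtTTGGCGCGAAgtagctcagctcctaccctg
Mcm7, first start: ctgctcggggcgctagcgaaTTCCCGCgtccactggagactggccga
Mcm7, second start: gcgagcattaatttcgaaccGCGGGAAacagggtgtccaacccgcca
Cdc6: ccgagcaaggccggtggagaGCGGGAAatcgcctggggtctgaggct

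The 6 helicase subunits shared 1 pattern: high and overlapping in MLC, dHD28 and MSC, lower in HD28 and lowest in hepatocytes. Mcm2 stood at 10.27, 10.66 and 9.76 in MLC, 10.09, 10.62 and 9.94 in dHD28, 8.62, 8.18 and 8.34 in HD28, 5.21, 6.73 and 5.75 in hepatocytes, and 10.72, 9.94 and 9.69 in MSC. For Mcm3 the values were 10.30, 11.10 and 9.87 in MLC, 10.47, 11.06 and 9.86 in dHD28, 8.36, 7.95 and 7.95 in HD28, 4.45, 6.55 and 5.65 in hepatocytes, and 11.13, 9.43 and 9.49 in MSC. Every HD28 array of both genes lay above every hepatocyte array and below every array of the 3 groups in MSC medium. Mcm4, whose product belongs with Mcm6 and Mcm7 to the part of the ring that unwinds DNA, measured 10.55, 10.70 and 10.16 in MLC, 10.60, 10.72 and 10.14 in dHD28, 9.05, 8.10 and 8.72 in HD28, 5.00, 6.93 and 6.08 in hepatocytes, and 10.56, 10.06 and 9.93 in MSC. Mcm5, which with Mcm2 forms the gate through which DNA enters the ring, measured 11.17, 11.91 and 10.81 in MLC, 10.69, 12.14 and 10.87 in dHD28, 8.05, 8.66 and 8.74 in HD28, 5.22, 6.87 and 6.35 in hepatocytes, and 12.13, 11.06 and 10.61 in MSC. Both kept the 3 tiers without overlap between them. Mcm6 had 11.06, 11.60 and 10.61 in MLC, 10.94, 11.5 and 10.53 in dHD28, 9.05, 8.71 and 8.42 in HD28, 4.93, 7.21 and 6.67 in hepatocytes, and 11.53, 10.53 and 10.42 in MSC. Mcm7 had 11.76, 12.00 and 11.14 in MLC, 11.35, 12.00 and 10.99 in dHD28, 9.79, 9.74 and 9.71 in HD28, 7.67, 8.66 and 8.0 in hepatocytes, and 12.10, 11.54 and 11.12 in MSC. The 3 HD28 arrays of Mcm7 differed by less than in any other group, with an SD of 0.04.

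The 2 loading factors followed the same tiers. Cdc6, the ATPase that recruits the helicase to the origin recognition complex, stood at 8.77, 9.22 and 7.84 in MLC, 8.60, 9.29 and 7.98 in dHD28, 5.82, 5.55 and 5.56 in HD28, 3.48, 3.80 and 2.87 in hepatocytes, and 9.32, 8.11 and 7.60 in MSC. Its hepatocyte values lie about the lower quartile of all probe sets on an array, which ranged from 3.43 to 3.70, so that group has a level near the dim end of the array. Cdt1, which delivers the helicase together with Cdc6, stood at 10.70, 11.42 and 10.30 in MLC, 10.42, 11.56 and 10.42 in dHD28, 8.56, 8.59 and 8.71 in HD28, 6.14, 7.37 and 7.01 in hepatocytes, and 11.58, 10.40 and 10.24 in MSC. No array of HD28 or Hepatocyte reached the lowest array of the groups in MSC medium for either gene.

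Geminin and Mcm10 departed from the tiers. Gmnn stood at 9.70, 9.20 and 9.30 in MLC, 9.28, 9.22 and 9.03 in dHD28, 7.44, 7.08 and 7.47 in HD28, 7.46, 8.21 and 8.04 in hepatocytes, and 9.14, 9.16 and 9.03 in MSC. Its lowest group was thus HD28, although hepatocyte replicate 1 overlapped HD28. Mcm10, read by its brightest probe set, stood at 8.25, 8.56 and 7.64 in MLC, 8.03, 8.58 and 7.93 in dHD28, 6.35, 6.27 and 7.74 in HD28, 10.69, 10.07 and 10.47 in hepatocytes, and 8.66, 8.09 and 7.74 in MSC. Hepatocytes were here the highest group, and HD28 replicate 3, the array with hepatocyte markers, stood above the other HD28 arrays and level with the lowest MSC array.

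**Figure D1:**
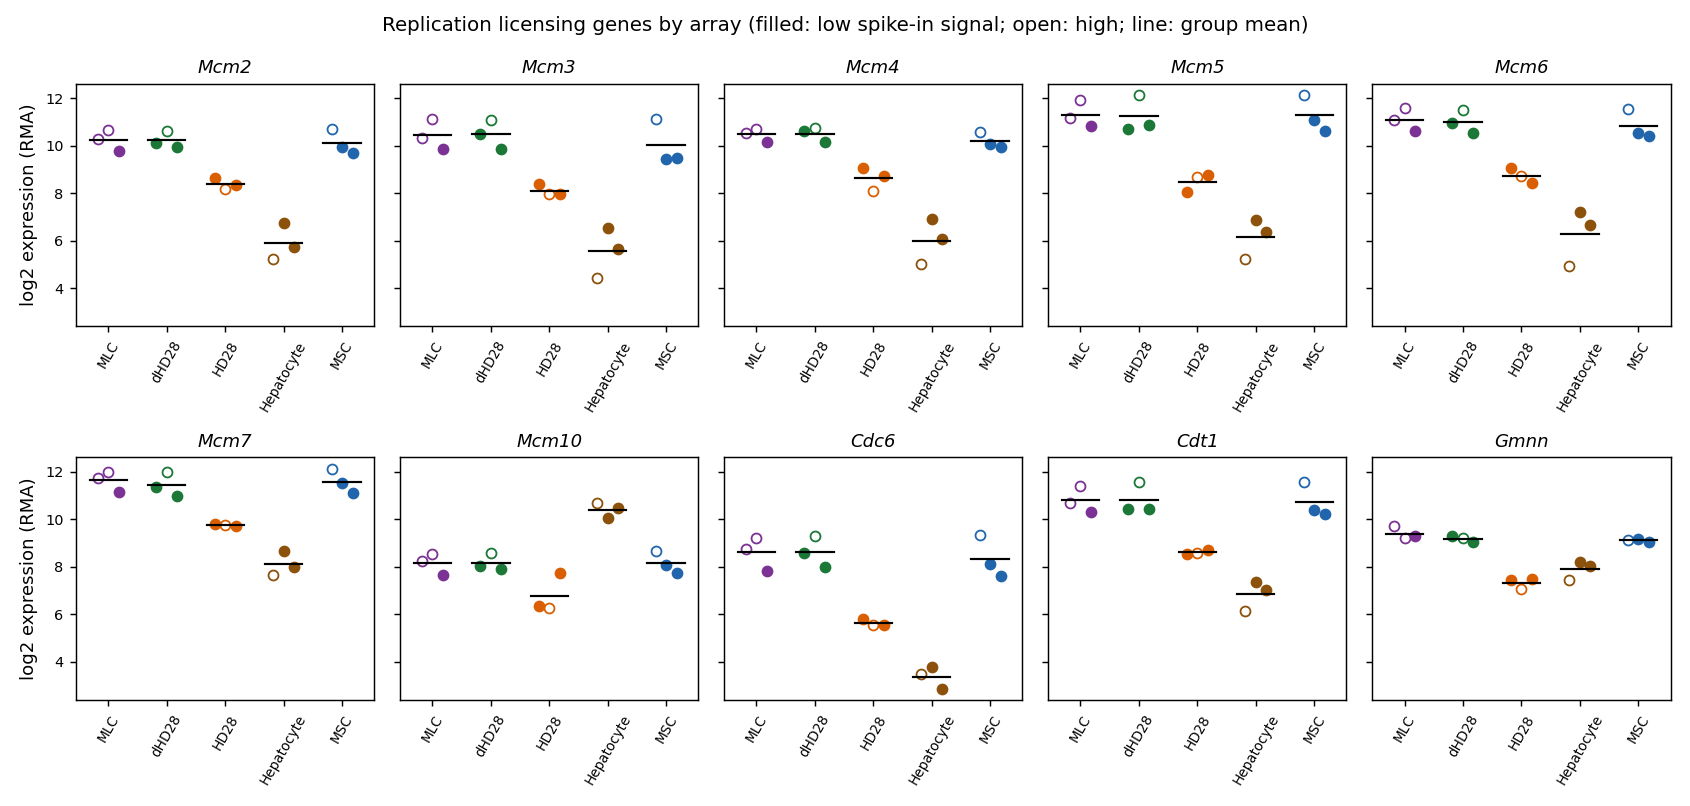
Log2 expression (RMA) of the 10 licensing genes in each array, with 1 panel per gene and the groups MLC, dHD28, HD28, Hepatocyte and MSC along the horizontal axis; filled points are arrays of low and open points arrays of high spike-in signal, and lines are group means. In 8 panels hepatocytes have the lowest mean; Gmnn and Mcm10 have theirs in HD28, and Mcm10 has its highest in hepatocytes.

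HD28 against MSC sets cells at the end of the hepatogenic protocol beside their source. The added factors, the other medium and the serum named only for MSC cannot be told apart in it. All 10 fell and 0 rose, where 3.52% of all genes fell and 3.24% rose (limma, Benjamini-Hochberg adjusted p under 0.05 over 18193 genes and at least 2-fold). Their median difference was -1.88 on the log2 scale, against -0.08 over all genes. Mcm5 fell furthest, by 2.78 ± 0.51 (SE; limma adjusted p = 0.0035), to 8.48 ± 0.38 in HD28 against 11.27 ± 0.78 in MSC (SD, n = 3 each). Cdc6 fell by 2.70 ± 0.46 (limma adjusted p = 0.0023), with every HD28 array at least 1.78 below the lowest MSC array. Cdt1 fell by 2.12 ± 0.43, Mcm6 by 2.10 ± 0.50 and Mcm3 by 1.93 ± 0.55. Gmnn fell by 1.78 ± 0.20 and had the smallest SE and the smallest limma adjusted p of the 10 (0.00012). Mcm7, Mcm2 and Mcm4 fell by 1.84 ± 0.33, 1.74 ± 0.37 and 1.56 ± 0.40. Mcm10 fell least, by 1.38 ± 0.38 (limma adjusted p = 0.036), and was the only gene whose arrays overlapped between the groups, where 19% of all genes stood lower without overlap. The calls rest on few arrays: 6 of 10 passed without HD28 replicate 2, and 6 of 10 without MSC replicate 1. Mcm3 kept its call in 8 of 15 fits that each left out 1 array, with limma adjusted p up to 0.17, and Mcm10 in 11 of 15, with p up to 0.15. Without HD28 replicate 3 the fall of Mcm10 was 1.86 (limma adjusted p = 0.004). In that same fit Mcm3 (limma adjusted p = 0.1), Mcm4 (0.051) and Mcm6 (0.058) lost their calls.

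Among arrays of 1 spike-in class the same direction was seen for every gene. With only arrays of low signal, the log2 differences of HD28 minus MSC ranged from -2.44 to -0.87, and 6 of 10 passed. With only arrays of high signal, 1 per group here, they ranged from -3.77 to -2.07 and none passed, in a fit with 1 residual degree of freedom.

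The return of HD28 cells to MSC medium is followed by dHD28 against HD28, in which loss of the factors, the change of medium and its serum cannot be told apart. All 10 genes rose and 0 fell, where 4.63% of all genes rose and 4.19% fell, and no gene's arrays overlapped between the groups, where 17% of all genes stood higher without overlap. The median difference was 2.02 against 0.05 over all genes. Cdc6 rose furthest, by 2.98 ± 0.46 (limma adjusted p = 0.00093), to 8.63 ± 0.66 in dHD28 against 5.65 ± 0.15 in HD28 (SD, n = 3 each). Mcm5 rose by 2.75 ± 0.51, Mcm3 by 2.38 ± 0.55, Mcm6 by 2.27 ± 0.50 and Cdt1 by 2.18 ± 0.43. The rises of Mcm4, Gmnn, Mcm2 and Mcm7 were 1.86 ± 0.40, 1.85 ± 0.20, 1.84 ± 0.37 and 1.70 ± 0.33. Mcm10 again moved least, by 1.40 ± 0.38 (limma adjusted p = 0.029). Leaving out dHD28 replicate 2 took Mcm10 (limma adjusted p = 0.12) and Mcm3 (0.055) out of the called genes; Mcm10 also lost its call without dHD28 replicate 1 (0.065), HD28 replicate 1 (0.10) or HD28 replicate 2 (0.12). The low-signal arrays alone gave differences from 0.94 to 2.60, with Mcm10 the only gene not called, and the high-signal arrays alone gave 2.14 to 3.74, with none called at 1 residual degree of freedom.

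Whether a loading factor or the inhibitor moved by more than the helicase was asked within each array, as its value minus the mean of Mcm2 to Mcm7. In HD28 against MSC the fall of Cdc6 exceeded that of the helicase by 0.71, and the arrays did not overlap (p = 0.1 by an exact permutation test, two-sided, which cannot go lower with 3 arrays against 3). On return in dHD28 its rise exceeded that of the helicase by 0.85, again without overlap (exact permutation p = 0.1). For Cdt1 the differences were -0.13 and 0.05, for Gmnn 0.21 and -0.29, and for Mcm10 0.61 and -0.74, with exact permutation p between 0.2 and 1 and overlapping arrays. Adjusted over the 8 tests, none was below 0.4, so unequal movement was not established at this number of arrays.

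**Figure D2:**
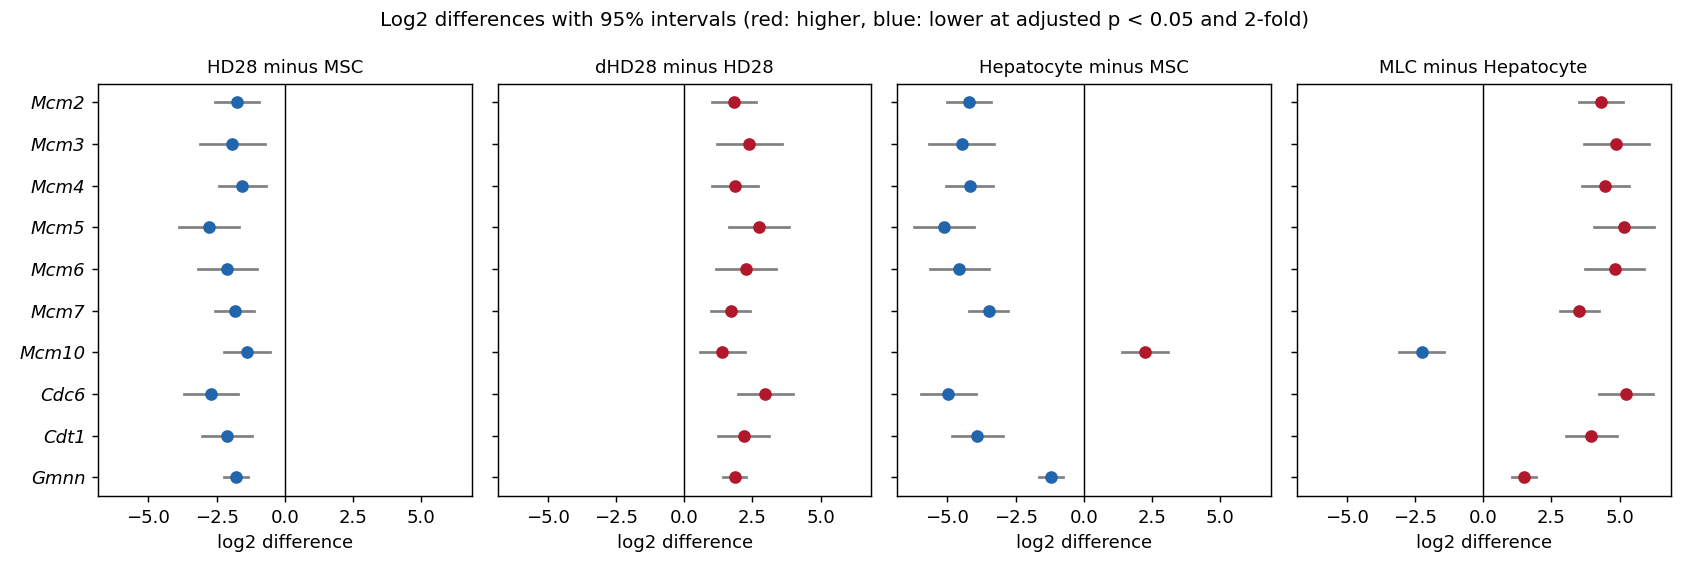
Log2 differences of the 10 licensing genes in 4 comparisons, 1 panel each (HD28 minus MSC, dHD28 minus HD28, Hepatocyte minus MSC, MLC minus Hepatocyte); points are limma estimates, bars are 95% intervals, and red and blue mark higher and lower calls. All 10 points lie below 0 in the first panel and above 0 in the second, and Mcm10 lies opposite to the other 9 in both panels with hepatocytes.

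After the return, no licensing gene was called between dHD28 and MSC. The log2 differences of dHD28 minus MSC ran from -0.14 (Mcm7) to 0.45 (Mcm3), 0 of 10 genes passed, and 0 of 18193 genes did (0%). At an unadjusted limma p under 0.05 there were 205 genes (1.13%) and 0 members. In all 10 the arrays overlapped, where 3.5% of all genes stood lower and 1.44% higher without overlap. The intervals are wide: for Mcm3 the 95% interval ran from -0.74 to 1.64, and for Gmnn, the narrowest, from -0.37 to 0.50. The same held for MLC, which began as hepatocytes. MLC minus MSC ranged from -0.01 (Mcm10) to 0.41 (Mcm3), with 0 of 10 members and 0 of 18193 genes (0%) called and 91 genes (0.5%) at an unadjusted limma p under 0.05. MLC minus dHD28 ranged from -0.04 (Mcm3) to 0.22 (Gmnn), with 0 of 10 members and 0 of 18193 genes (0%) called and 64 genes (0.352%) at an unadjusted limma p under 0.05. No member was among those genes in either comparison, and a p that misses the threshold does not show that these groups are alike. MSC replicate 1, dHD28 replicate 2 and MLC replicate 2 deviated alike from their group means over all genes (r of 0.78 to 0.85), and the labels do not say whether arrays of these 3 groups come from independent cultures. Gmnn alone had non-overlapping arrays between MLC and MSC, 0.29 ± 0.20 higher in MLC, where 1.5% of all genes stood higher and 3.78% lower without overlap. Between MLC and dHD28 the arrays of all 10 overlapped, where 1.7% of all genes stood higher and 1.79% lower.

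Primary hepatocytes against MSC compares the starting cell types. Of the 10 genes, 9 fell, where 18.3% of all genes fell, and Mcm10 rose, where 11.8% rose. Mcm5 fell by 5.12 ± 0.51 (limma adjusted p = 2.7e-06), a fold of 34.8 on the linear scale. Cdc6 fell by 4.96 ± 0.46 (limma adjusted p = 1.6e-06), but its hepatocyte level lies at the dim end of the array, so the size of this difference is uncertain and no fold is given. Mcm6, Mcm3, Mcm2 and Mcm4 fell by 4.56, 4.47, 4.22 and 4.18, Cdt1 by 3.90 and Mcm7 by 3.48. Gmnn fell by only 1.21 ± 0.20 (limma adjusted p = 0.00022), and by 0.99, under the 2-fold limit, without hepatocyte replicate 1. Actin 3′ minus 5′ signal, a sign of RNA quality, was 0.66, 1.24 and 1.23 in hepatocytes against 0.13, 0.36 and 0.44 in MSC, and its part in these differences was not tested. In all 10 the arrays of the groups did not overlap, where 27.9% of all genes stood lower and 24.7% higher without overlap.

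HD28 stood between the starting cell types for 8 genes. Against hepatocytes these 8 were higher in HD28, where 15.3% of all genes were, by 1.64 (Mcm7) to 2.62 (Mcm4), with limma adjusted p between 0.00012 and 0.0043. Mcm10 was lower in HD28 by 3.62 ± 0.38 (limma adjusted p = 6.9e-06), where 11.2% of all genes were lower. Gmnn had 7.33 ± 0.22 in HD28 and 7.90 ± 0.39 in hepatocytes (SD, n = 3 each), a difference of -0.57 ± 0.20 that passed the p threshold (limma adjusted p = 0.032) but not the fold limit. Its arrays overlapped, and those of the other 9 did not, where 26.6% of all genes stood higher and 29.1% lower in HD28 without overlap.

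In the reverse course, MLC against hepatocytes, 9 of 10 genes rose, where 18.4% of all genes rose, and Mcm10 fell, where 12% did. Cdc6 rose by 5.23 ± 0.46, to 8.61 ± 0.70 in MLC against 3.38 ± 0.47 in hepatocytes (SD, n = 3 each; limma adjusted p = 9.9e-07), with the same uncertainty in size from the dim hepatocyte values. Mcm5 rose by 5.15 ± 0.51, and Gmnn by 1.5 ± 0.20. The arrays of all 10 were apart, where 28.8% of all genes stood higher and 28.3% lower in MLC without overlap. Both courses end in MSC medium, and the difference between them, the change of MLC from hepatocytes minus the change of dHD28 from HD28, was tested itself. By its terms it is HD28 minus hepatocytes plus MLC minus dHD28. The second part lay between -0.04 and 0.22 in the members, so the test mostly repeats HD28 against hepatocytes. The difference was positive and called for 8 genes, where 13.8% of all genes were so called, from 1.79 ± 0.61 for Cdt1 to 2.60 ± 0.56 for Mcm4. It was -3.66 ± 0.54 for Mcm10 (limma adjusted p = 0.00027), where 9.96% of genes had a negative call, and -0.35 ± 0.28 for Gmnn (limma adjusted p = 0.38). The value for Mcm10 is that of its brightest probe set; the other 2 gave -0.23 (limma adjusted p = 0.83) and -1.15 (limma adjusted p = 0.12) for the same difference, and the mean of the 3 gave -1.68 (limma adjusted p = 0.015). The call of Cdt1 (limma adjusted p = 0.041) held in 6 of 15 fits that left out 1 array, and without MLC replicate 2 the count was 5 in place of 9. That of Mcm3 held in 10 of 15 and that of Mcm5 in 11 of 15. With the mean of the probe sets of a gene, the calls of Mcm3, Mcm5, Mcm7 and Cdt1 were lost (limma adjusted p of 0.11, 0.083, 0.058 and 0.055).

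The 3 probe sets of Mcm10 disagreed about hepatocytes. The brightest, 1433408_a_at, gave 2.25 ± 0.38 for hepatocytes minus MSC. The second, 1454244_at, stood at 5.31, 5.84 and 4.90 in MLC, 5.78, 5.89 and 4.46 in dHD28, 3.88, 4.17 and 3.59 in HD28, 4.49, 3.64 and 4.13 in hepatocytes, and 5.54, 4.52 and 4.43 in MSC. It put hepatocytes 0.74 ± 0.41 below MSC (limma adjusted p = 0.19 over 45037 probe sets). Between MLC and hepatocytes the 2 probe sets were called in opposite directions: -2.26 ± 0.38 for 1433408_a_at (limma adjusted p = 0.00041) and 1.26 ± 0.41 for 1454244_at (limma adjusted p = 0.027). The remaining probe set, 1433407_at, gave 0.47 ± 0.34 for hepatocytes minus MSC (limma adjusted p = 0.33). All 3 were lower in HD28 than in MSC, by 1.38, 0.94 and 0.62, the last 2 without a call. With the mean of the 3 probe sets, the difference of hepatocytes minus MSC was 0.66 (limma adjusted p = 0.12), and that of MLC minus hepatocytes was -0.47 (limma adjusted p = 0.25). The direction for Mcm10 in hepatocytes therefore depends on the probe set.

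**Figure D3:**
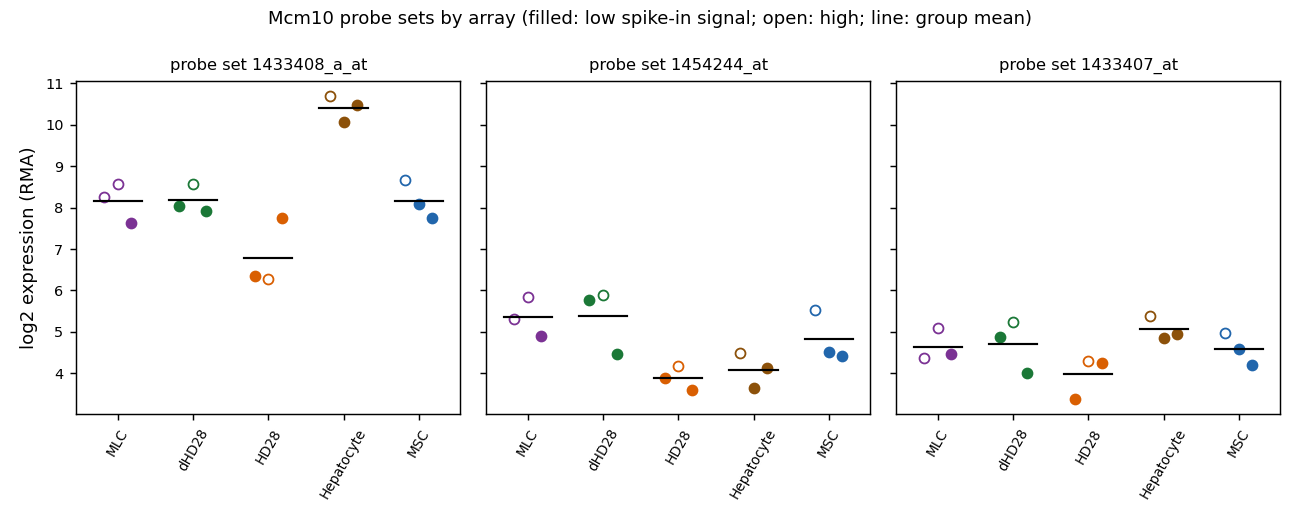
Log2 expression (RMA) of the 3 Mcm10 probe sets in each array, with groups along the horizontal axis, filled and open points for low and high spike-in signal and lines for group means. The left probe set is highest in hepatocytes, at 10.41 on average, whereas the middle one has 4.09 in hepatocytes against 4.83 in MSC.

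For the other genes no 2 probe sets were called in opposite directions within a comparison. Of all 27 probe sets, 20 were lower in HD28 than in MSC, where 2.32% of all probe sets were, and 0 were higher, where 2.28% were. In dHD28 against HD28, 22 of 27 were higher, where 3.36% were, and 0 were lower, where 2.89% were. Without HD28 replicate 2 or MSC replicate 1 the first count was 9, without HD28 replicate 1 it was 12 and without HD28 replicate 3 it was 13, and the second was 13 without dHD28 replicate 2. In HD28 against hepatocytes 17 were higher and 2 lower, where 11.3% and 8.14% of all probe sets were. Hepatocytes against MSC gave 21 lower and 1 higher, where 13.4% and 8.81% were, and MLC against hepatocytes gave 22 higher and 1 lower, where 13.8% and 8.92% were. All 4 probe sets of Mcm7, all 3 of Mcm5 and both of Mcm2 and of Mcm4 were called in both comparisons. Of the 5 probe sets of Mcm3, 2 were called lower in HD28 against MSC and 3 higher in dHD28 against HD28. The probe set that stands for Mcm3, 1420028_s_at, was not called in HD28 against MSC (limma adjusted p = 0.055 over 45037 probe sets). The uncalled probe sets of the members include 1447756_x_at of Mcm6 and 1455791_at of Cdt1, whose group means of 2.20 to 2.64 lie below the lower quartile of all probe sets in every group. Brighter ones were uncalled in both comparisons too, such as 1426653_at of Mcm3 (limma adjusted p = 0.26 and 0.066).

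In MLC, dHD28, hepatocytes and MSC most licensing genes had the same highest array within the group. In HD28 they did not: replicate 1 was highest in 6 genes, replicate 3 in 4 and replicate 2 in 0. MSC replicate 1 was the highest MSC array in 9 of 10 genes, dHD28 replicate 2 the highest dHD28 array in 9, and MLC replicate 2 the highest MLC array in 9. Their members lay on average 0.65, 0.51 and 0.43 above the group means. All 3 are arrays of high spike-in signal, and their correlation over all 18193 genes is given above. The other high-signal arrays did not share the rise: MLC replicate 1 lay at 0.04, HD28 replicate 2 at -0.16 and Hepatocyte replicate 1 at -0.63. No member was called between the spike-in classes, the nearest being Cdc6 with 0.73 higher in the high class (limma adjusted p = 0.054). The share of all genes called between the classes is not given here, so this count says nothing particular about the members. The part of the spike-in class in the spread between replicates was not tested further.

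Hepatocyte replicate 1 was the lowest hepatocyte array in 8 of 10 genes and replicate 2 the highest in 9. The same replicate 1 had lower marker means than replicates 2 and 3 for Kupffer cells and macrophages (6.54 against 7.76 and 8.08), endothelial cells (5.51 against 6.47 and 6.57), lymphocytes (4.91 against 5.71 and 5.54) and stromal cells (5.24 against 6.10 and 6.06). Their part in the hepatocyte levels was not tested. Gmnn had the smallest SD of the 10 genes in MLC, dHD28 and MSC (0.27, 0.13 and 0.07), where the median member had 0.48, 0.50 and 0.57. The median SD over all genes was 0.20, 0.25 and 0.22 in these groups, so in MLC Gmnn varied no less than a typical gene.

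**Figure D4:**
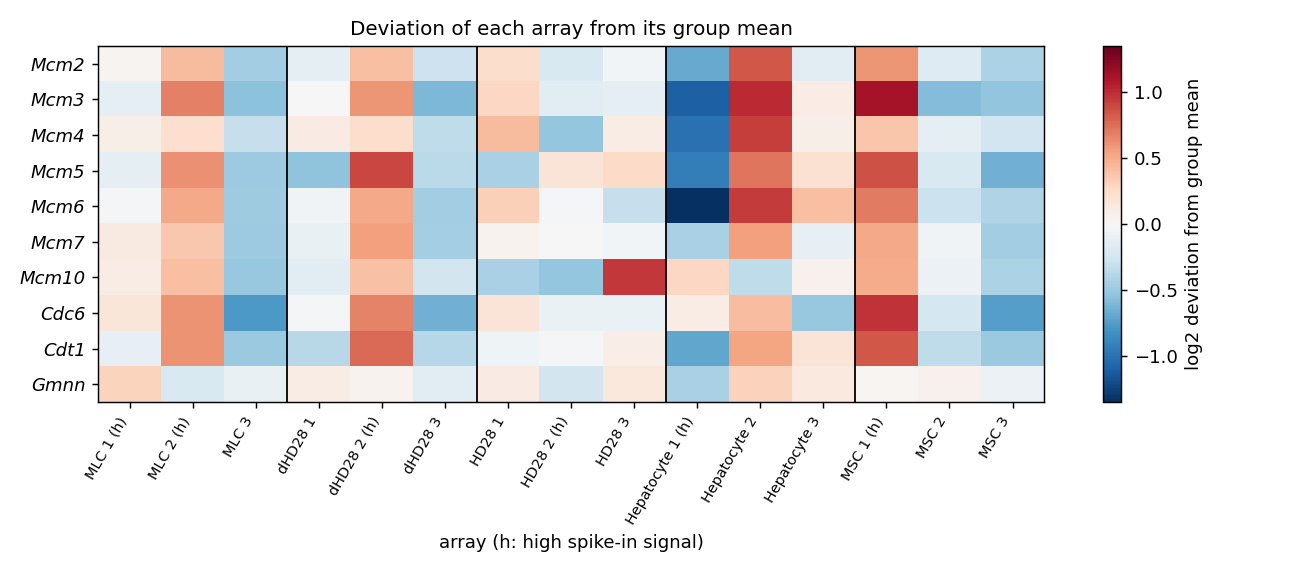
Deviation of each array from its group mean, in log2 units, for the 10 licensing genes (rows) and 15 arrays (columns, h marking high spike-in signal); red is above and blue below the group mean. MLC replicate 2, dHD28 replicate 2, Hepatocyte replicate 2 and MSC replicate 1 are red in nearly all rows, and the row of Gmnn is pale.

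Across the 15 arrays, the 45 pairs of members had a median Pearson r of 0.98, from -0.57 to 0.997. After group means were removed, the median r was 0.77, from 0.06 to 0.97. These values describe arrays that share 5 groups and are not independent of them. Cdt1 followed the mean of the 10 genes most closely of all genes (r = 0.996), Gmnn had r = 0.84 and Mcm10 r = -0.39. Each member is itself part of that mean, so its r and rank are not on equal terms with those of other genes. The 10 genes outside the set most like that mean were Nek2, Cenpa, Gins2, Dut, Cdca3, Exo1, Lig1, Ncapd2, Cdc25a and Asf1b, with r from 0.991 to 0.994 over 15 arrays. Nek2 encodes a centrosomal kinase, Cenpa the centromeric histone H3 variant, and Lig1 the ligase that joins Okazaki fragments.

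Other genes of the pathway were counted in 8 lists of 86 measured genes. In HD28 against MSC, 53 of 86 fell and 1 rose, with a median of -1.32, and in dHD28 against HD28, 57 of 86 rose and 1 fell, with a median of 1.46; the shares of all genes are those given above. The list of the origin recognition complex, which marks origins before licensing, and of MCM relatives moved less by its median than the other lists. In it 2 of 9 genes fell in HD28, Mcm8 by 1.03 ± 0.16 and Orc6 by 1.02 ± 0.22. The list median was -0.31, against -0.08 over all genes, and all 9 genes lay below 0. On return 3 of 9 rose, Orc2 by 1.33, Orc6 by 1.26 and Mcm8 by 1.18, and 0 of 9 lay below 0. Genes that turn the loaded helicase into an active one fell in 10 of 13 cases in HD28, among them Gins1 by 2.18 ± 0.15 and Gins2 by 1.96 ± 0.29, which encode parts of the GINS complex, and Cdc45 by 1.71 ± 0.39. The same count, 10 of 13, rose on return, led by Gins1 (2.37), Cdc45 (2.09) and Gins2 (2.05).

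At the replication fork 17 of 24 genes fell in HD28, with Pole, the catalytic subunit of polymerase epsilon, lower by 2.20 ± 0.36, Lig1 by 2.11 ± 0.40 and Timeless by 2.07 ± 0.33. On return 19 of 24 rose, Timeless by 2.21, Rfc5 by 2.15 and Clspn by 2.15. Of 9 genes for Cdt1 degradation and MCM unloading, 5 fell, including Lrr1, a receptor for the ubiquitin ligase that unloads the helicase (2.64 ± 0.31), Skp2 (1.96 ± 0.37) and Dtl, which targets Cdt1 for destruction (1.77 ± 0.32). Those 3 led the 5 that rose on return, by 2.66, 2.28 and 1.91. Nucleotide supply had 4 of 6 genes lower in HD28, with Tk1 down by 2.56 ± 0.45, Dut by 1.82 ± 0.32 and Dck by 1.68 ± 0.41, and 4 of 6 higher on return, with Tk1 up by 2.76.

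The E2F and pocket protein list split. E2f7 and E2f8, which encode repressors of the family, fell in HD28 by 2.32 ± 0.47 and 2.14 ± 0.27, 4 of 13 genes fell in all, and Rbl2, which encodes the pocket protein p130 found in quiescent cells, rose by 1.22 ± 0.26 (limma adjusted p = 0.008). On return E2f7 rose by 2.49, E2f8 by 2.07 and Tfdp1 by 1.47, 4 of 13 in all, and Rbl2 fell by 1.28 ± 0.26. Of 5 S phase cyclins and kinases, 4 fell in HD28, Ccna2 by 2.26 ± 0.36, Ccne1 by 1.54 ± 0.42 and Ccne2 by 1.32 ± 0.33, and 5 rose on return. All 7 measured mitotic markers fell in HD28, with Birc5, Plk1 and Aurkb lower by 2.57 ± 0.46, 2.54 ± 0.43 and 2.48 ± 0.48, and all 7 rose on return.

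**Figure D5:**
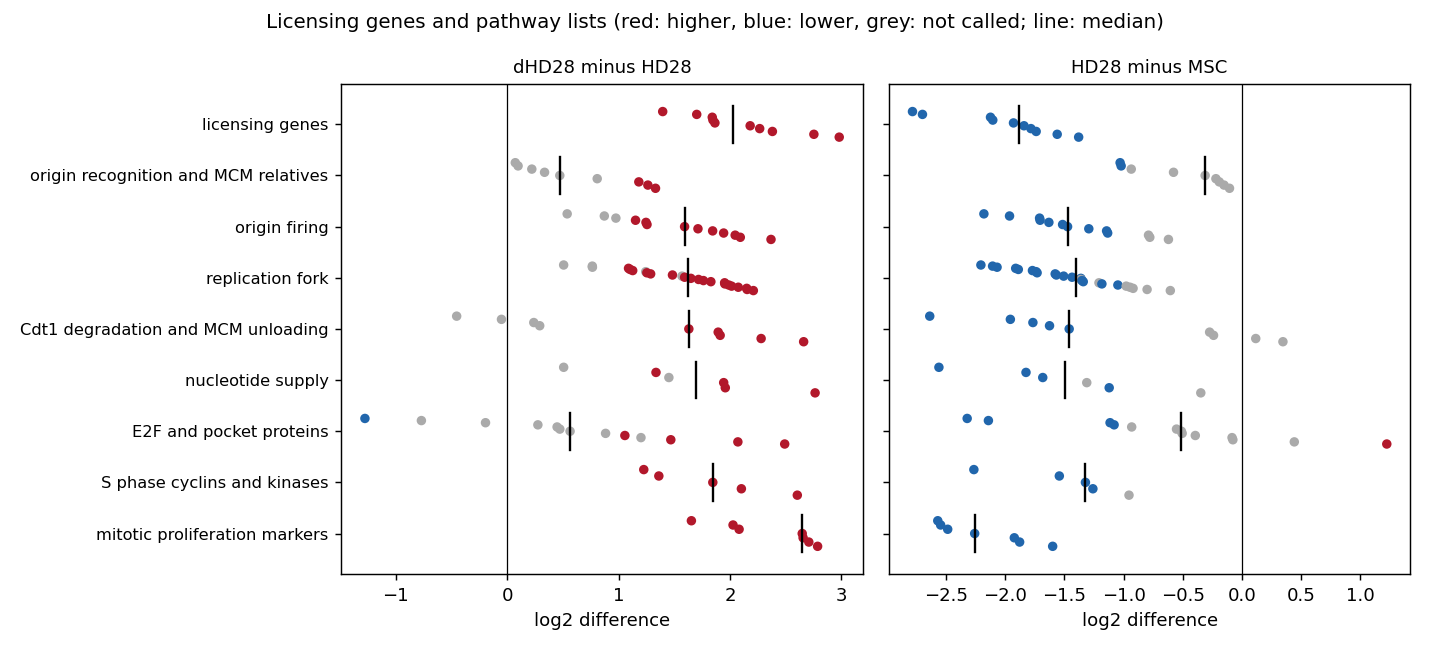
Log2 differences of dHD28 minus HD28 (left) and HD28 minus MSC (right) for the 10 licensing genes and 8 pathway lists, 1 point per gene; red and blue mark higher and lower calls, grey marks genes not called, and lines are list medians. The origin recognition list has the medians nearest to 0 of the lists, 0.47 and -0.31, with all 9 genes on the same side of 0 in each panel. The mitotic markers have medians of 2.65 and -2.26.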

How the data were processed

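The authors normalized the arrays by RMA, per the submitters' processing notes, with no version named. The deposited values (45101 probe sets, 15 arrays) were read as log2 from their range of 1.32 to 14.15, since the notes give no base. Precision is limited by the number of arrays. By the platform annotation, 64 probe sets are controls, 34945 carry 1 gene symbol, 932 several and 9160 none. The probe set with the highest mean stood for a gene.

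A model of 5 group means was fitted with limma 3.58.1 in R 4.3.3 (10 residual degrees of freedom), two-sided, with p adjusted over 18193 genes by Benjamini-Hochberg; rises and falls are calls with adjusted p under 0.05 and at least a 2-fold difference. The fit was checked on simulated data. Same-number arrays of dHD28 and HD28 had correlated deviations (0.32, 0.28 and 0.12), but share the spike-in class; those of MLC and dHD28 had 0.21, 0.78 and 0.60. The members and lists were chosen with earlier results of these data known. All members are named, with the 3 largest called genes of each list in 2 comparisons and the 10 genes most like the members; Rbl2 on return, Mcm10's probe sets and the run shared by 3 promoters were singled out after their values were seen. Promoters are from RefSeq, assembly GRCm38.p6. Alternatives covered probe sets, scaling, priors, blocks and left-out arrays; fits by spike-in class, fits without 2 doubted arrays, and the alternatives for single probe sets and for members against the helicase were chosen after seeing the data. Counts over a list cover its genes that had a probe set with 1 symbol.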

Additional observations from a re-analysis of the deposited data

Results flagged for a closer look

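The 2 courses into MSC medium differed in 9 of 10 licensing genes by a test of the difference itself (limma, the change of MLC from hepatocytes minus the change of dHD28 from HD28). The difference was 2.5 for Mcm2, 2.5 for Mcm3, 2.60 for Mcm4, 2.40 for Mcm5, 2.55 for Mcm6, 1.82 for Mcm7, 2.25 for Cdc6 and 1.79 for Cdt1 on the log2 scale, larger in the course that began with hepatocytes, and -3.66 for Mcm10. The Mcm10 value rests on 1 of 3 probe sets, since the other 2 gave -0.23 and -1.15 without a call. Calls of Mcm3, Mcm5, Mcm7 and Cdt1 also depend on the probe set. With the mean of the probe sets of a gene they were lost (limma adjusted p of 0.11, 0.083, 0.058 and 0.055). Among 15 fits that left out 1 array, Mcm3 kept its call in 10, Mcm5 in 11 and Cdt1 in 6. MLC and dHD28 ended at overlapping levels in all 10 genes, and they began at unlike mean levels, 5.55 to 8.11 in hepatocytes against 8.09 to 9.75 in HD28 for the 6 helicase subunits. The difference between the courses therefore mostly repeats that of HD28 against hepatocytes.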

How the results depend on the processing

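Of 2970 values of the 90 member changes under other settings, 2842 kept their side of the threshold, 127 fell below it and 1 rose above it. Among changes called in either fit 0 reversed, but changes without a call could change sign. Mcm3 in dHD28 minus MSC, for example, was 0.45 in the main fit and -0.07 at the lowest of the other settings. The total includes the comparisons among MLC, dHD28 and MSC, which held no call to lose. With a treat test against a fold of 1.5, 4 of 10 members passed in HD28 against MSC, 4 in dHD28 against HD28 and 3 in the difference between the courses, and 4 of 27 probe sets in each of the first 2 comparisons. Only low-signal arrays gave 6 members and 10 probe sets in HD28 against MSC. Only high-signal arrays gave 0 members and 0 probe sets there, 0 and 0 in dHD28 against HD28, and 2 members in the difference; these fits had 1 residual degree of freedom. The mean of the probe sets of a gene gave 5 in the difference between the courses, and fits with only the arrays compared gave 11 probe sets in HD28 against MSC. Leaving out 1 array gave 6 to 10 members in HD28 against MSC, 8 to 10 in dHD28 against HD28 and 5 to 9 in the difference, with 9 to 20 and 13 to 23 probe sets in the first 2 comparisons. Without both HD28 replicate 3 and Hepatocyte replicate 1, 9 members passed in HD28 against MSC, 10 in dHD28 against HD28 and 6 in the difference. With the replicate number as a block, 9 members passed in HD28 against MSC, where Mcm10 had a limma adjusted p of 0.055, and 10 in dHD28 against HD28; the block took no other member below the threshold. Centring on housekeeping genes moved the median of all genes for hepatocytes minus MSC to 0.39 in place of 0.04, and turned the split of higher and lower calls to 3065 and 2443 in place of 2149 and 3327, for HD28 minus hepatocytes to 2080 and 3035 in place of 2786 and 2039, for MLC minus hepatocytes to 2369 and 3423 in place of 3353 and 2188, and for the difference to 1823 and 3023 in place of 2502 and 1812; there Gmnn in hepatocytes minus MSC was -0.86, under the fold limit, and Cdt1 in the difference lost its call. With the same centring the split also turned for HD28 minus MSC, to 632 and 598 in place of 590 and 641. For dHD28 minus HD28 it turned to 749 and 827 in place of 843 and 762. The cause of each change was not tested. The 3 arrays of a group limit what can be told, and the dim probe sets can show no fall.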
